A study of Saccharomyces cerevisiae with 12 samples.

Results

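The cell wall of budding yeast is a network of glucan and chitin with an outer layer of heavily mannosylated proteins. Most of these mannoproteins are either joined to glucan through a former glycosylphosphatidylinositol (GPI) anchor or, in the PIR family (proteins with internal repeats), linked to glucan more directly. A growing cell makes them in large amounts, and damage to the wall acts through a kinase cascade, the cell wall integrity pathway, that ends in the MAP kinase Slt2. The 10 genes described here were listed by name and found by symbol in a gene table of 6002 protein-coding genes on the nuclear chromosomes (R64). They are the GPI-type wall proteins CCW12, CCW14, CWP1, CWP2 and SED1, the PIR proteins CIS3, HSP150, PIR1 and PIR3, and GAS1, a GPI-anchored glucanosyltransferase of the plasma membrane that lengthens glucan chains.

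RNA polymerase II (Pol II) was mapped by chromatin immunoprecipitation and sequencing in 2 Saccharomyces cerevisiae strains. The mutant, here dbp2Δ, was MATa dbp2::KanMx6 and lacked Dbp2, a DEAD-box RNA helicase, while the wild type kept DBP2. Both were MATa, carried the his3, leu2, met15 and ura3 deletions and a 3XFLAG tag on the Pol II subunit Rpb3, and were grown at 30 °C in rich medium with 2% glucose. Cells of both strains were fixed with 1% formaldehyde for 15 min. For each strain 3 immunoprecipitates and 3 inputs were pooled before peaks were called, which left 4030024 immunoprecipitated fragments in dbp2Δ and 3648848 in the wild type after duplicates were removed. There was thus 1 list of peaks per strain, 1628 peaks in dbp2Δ and 1642 in the wild type, with no value per replicate, no spread and no test between the strains. Coverage of DBP2, the deleted gene, was 0% in dbp2Δ and 100% in the wild type.

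A gene is said to have a peak when called peaks covered at least 50% of its length. Of the 10 genes, 7 had a peak in dbp2Δ and 8 in the wild type. Over all 6002 protein-coding genes the shares were 20.6% in dbp2Δ and 19.9% in the wild type. CCW12, CCW14, SED1, CWP2, CIS3, HSP150 and GAS1 had a peak in both lists, as did 16.9% of all genes, and each of these 7 was covered over 100% of its length in each strain. PIR1 had a peak in the wild type only, as did 3% of all genes, and no member had one in dbp2Δ only, against 3.7% of all genes. CWP1 and PIR3 were covered over 0% of their length in both lists.

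Heights are given as pileup, the number of immunoprecipitated fragments over the summit, and as fold enrichment, the pileup over the caller's background. Both are the authors' values from the peak caller. They refer to the summit of the peak, which can lie outside the named gene. At the highest peaks over the members the background implied by these values was 94.5 to 94.6 fragments in dbp2Δ and 82.3 fragments in the wild type. It was thus nearly constant within each list, where fold enrichment and pileup put the members in the same order. Fold enrichment is there close to a rescaled pileup, so the order is not borne out by 2 separate measures. The lists were scaled separately, so values of the 2 strains stand side by side without a direction. Within each list, CCW12 had the highest fold enrichment of the members. The order in dbp2Δ was CCW12, then CIS3 and HSP150 under 1 shared peak, CWP2, GAS1, SED1 and CCW14. In the wild type it was CCW12, CWP2, CIS3 and HSP150, GAS1, CCW14, PIR1 and SED1, and CWP2 and the shared peak of CIS3 and HSP150 were only 3 ranks apart. With no spread between replicates, it could not be judged whether neighbours in either order differ. The median fold enrichment over members with a peak was 10.1 in dbp2Δ (n = 7) and 7.29 in the wild type (n = 8). The shared peak was counted for each of its genes. PIR1, at 2.76, entered only the wild-type median, so the medians of the members are over different genes. Over all genes with a peak the median was 2.91 in dbp2Δ and 2.86 in the wild type.

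**Figure D1:**
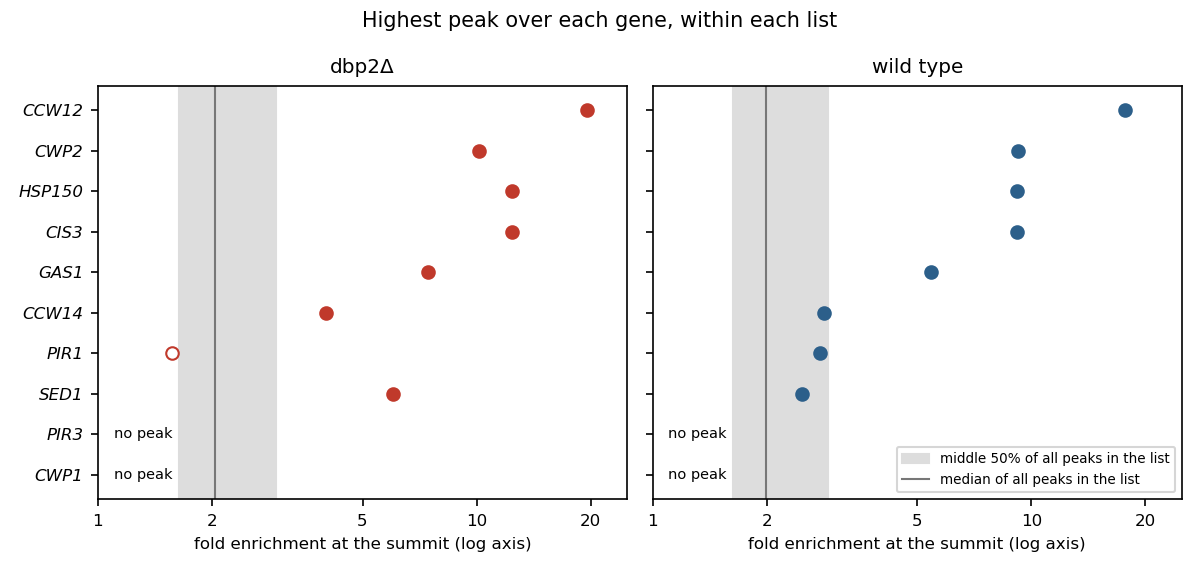
Fold enrichment at the summit of the highest peak over each gene (log axis), with dbp2Δ left and the wild type right, 1 point per gene from 1 pooled peak list each. Filled points stand for genes with a peak, the open point for PIR1 in dbp2Δ (28.3% covered), and the grey band and line give the middle 50% and the median of all peaks in that list. CCW12 stands at 19.5 in dbp2Δ and 17.7 in the wild type, while CWP1 and PIR3 have no peak in either list.

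CCW12 (YLR110C, chromosome XII, 369697 to 370098) encodes a small and abundant wall mannoprotein needed for normal wall strength. Its peak had a pileup of 1865 fragments and a fold enrichment of 19.5 in dbp2Δ, where it ranked 2 of 1628, and 1470 fragments and 17.7 in the wild type, where it ranked 4 of 1642. The summit lay inside CCW12 in both lists, 326 bp from the first base of the coding region in dbp2Δ and 325 bp in the wild type. The summit position thus differed by 1 bp between the strains. The peak ran from 331 bp before CCW12 to 1004 bp past its end in dbp2Δ, and from 356 bp before to 1066 bp past it in the wild type. It therefore took in the whole of the convergent neighbour AHP1 (368781 to 369311), which encodes a thiol-specific peroxiredoxin, and the caller gave no separate value for it.

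CCW14 (YLR390W-A, chromosome XII, 903724 to 904440) encodes a wall protein of the inner layer. The peak had 382 fragments and a fold enrichment of 4.01 in dbp2Δ, and 235 fragments and 2.83 in the wild type, at ranks 281 and 429 of the dbp2Δ and wild-type lists. Its outline was alike in the strains, from 478 bp before the gene to 568 bp past it in dbp2Δ and from 500 bp before to 458 bp past it in the wild type. The summit was at opposite ends of the gene. In dbp2Δ it lay 280 bp past the end of CCW14, in the space before the convergent gene ART10, and in the wild type 41 bp after the first base of the coding region. The upstream neighbour ECM19 was covered over 46.9% in dbp2Δ and 53.4% in the wild type.

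SED1 (YDR077W, chromosome IV, 600793 to 601809) encodes a structural GPI-type wall protein that is most abundant in stationary phase. Its peak had 575 fragments and a fold enrichment of 6.03 in dbp2Δ, ranked 173, and 206 fragments and 2.49 in the wild type, ranked 544. The peak ran from 264 bp before SED1 to 746 bp past it in dbp2Δ and from 132 bp before to 603 bp past it in the wild type, and so reached further at both ends in dbp2Δ. The summit lay 399 bp past the end of SED1 in dbp2Δ, within the end of the convergent gene SHU2 (602198 to 602869), and 50 bp before the end of SED1 in the wild type. SHU2, which encodes a member of a complex in recombination repair, was covered over 53.3% in dbp2Δ and 32.0% in the wild type. Which of the pair of genes the dbp2Δ summit belongs to cannot be told from the lists.

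CWP2 (YKL096W-A, chromosome XI, 259253 to 259531) and CWP1 (YKL096W, 261132 to 261851) encode major mannoproteins of the wall and lie in tandem, 1600 bp apart. The CWP2 peak had 967 fragments and a fold enrichment of 10.1 in dbp2Δ, ranked 51, and 765 fragments and 9.20 in the wild type, ranked 80. Its summit lay inside CWP2 in both, 199 bp from the first base in dbp2Δ and 84 bp in the wild type. The peak also covered YKL096C-B on the other strand. It ended 670 bp past CWP2 in dbp2Δ and 537 bp past it in the wild type, which was 930 bp short of CWP1 in dbp2Δ and 1063 bp short in the wild type. CWP1 itself had no peak over any of its length in either list.

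CIS3 (YJL158C, chromosome X, 122265 to 122948) and HSP150 (YJL159W, 120449 to 121690) encode PIR proteins, the second also known as a secreted heat shock protein. They point towards each other across 574 bp. A single peak of 2914 bp in dbp2Δ and 2937 bp in the wild type spanned both genes, with the same outer edge 232 bp before HSP150. It had 1181 fragments and a fold enrichment of 12.4 in dbp2Δ, ranked 29, and 761 fragments and 9.15 in the wild type, ranked 83. The summit lay in neither gene but between their ends, 233 bp past CIS3 and 342 bp past HSP150 in dbp2Δ, and 222 bp past CIS3 and 353 bp past HSP150 in the wild type. The signal at this summit cannot be divided between the 2 genes.

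PIR1 (YKL164C, chromosome XI, 141794 to 142819) and PIR3 (YKL163W, 144401 to 145378) encode the other PIR proteins and point away from each other across 1581 bp. In dbp2Δ the PIR1 locus held 2 short peaks. The first, 375 bp long with 149 fragments and a fold enrichment of 1.57, lay over the start of PIR1 and covered 28.3% of it. The second, 318 bp long with 178 fragments and a fold enrichment of 1.78, lay past the end of the gene. No dbp2Δ peak was called in the 962 bp between them (141568 to 142529). In the wild type 1 peak of 1862 bp ran across all of PIR1, with 229 fragments and a fold enrichment of 2.76. The outer boundary past the end of PIR1 was nearly the same, at 141250 in dbp2Δ and 141245 in the wild type. The summit over PIR1 lay 100 bp from the first base in dbp2Δ and 40 bp in the wild type, near the start of the gene in each list. The dbp2Δ peaks over and past PIR1 ranked 1299 and 1050 of 1628, and the wild-type peak 444 of 1642. Signal below the caller's threshold was not analysed here.

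PIR3 had no peak over its coding region, but both lists held a peak between PIR1 and PIR3. It spanned 143547 to 144131 in dbp2Δ, with a fold enrichment of 1.86, and 143537 to 144166 in the wild type, with 2.39. Its summits, at 143747 in dbp2Δ and 143749 in the wild type, were 2 bp apart, and no gene of the table lies there. The edge nearest to PIR3 stopped 269 bp before its coding region in dbp2Δ and 234 bp before it in the wild type.

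GAS1 (YMR307W, chromosome XIII, 887003 to 888682) lay at 1 end of the longest peak over any member, 8875 bp in dbp2Δ and 8999 bp in the wild type. The peak also covered all of PSE1, which encodes a nuclear import receptor, and NIP1, which encodes a subunit of translation initiation factor eIF3. It had 711 fragments and a fold enrichment of 7.45 in dbp2Δ, ranked 109, and 451 fragments and 5.43 in the wild type, ranked 216. The summit of this long peak fell inside GAS1 in both lists but at opposite ends of it. It lay 10 bp before the end of GAS1 in dbp2Δ, next to the convergent end of PSE1, and 70 bp after the first base in the wild type.

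**Figure D2:**
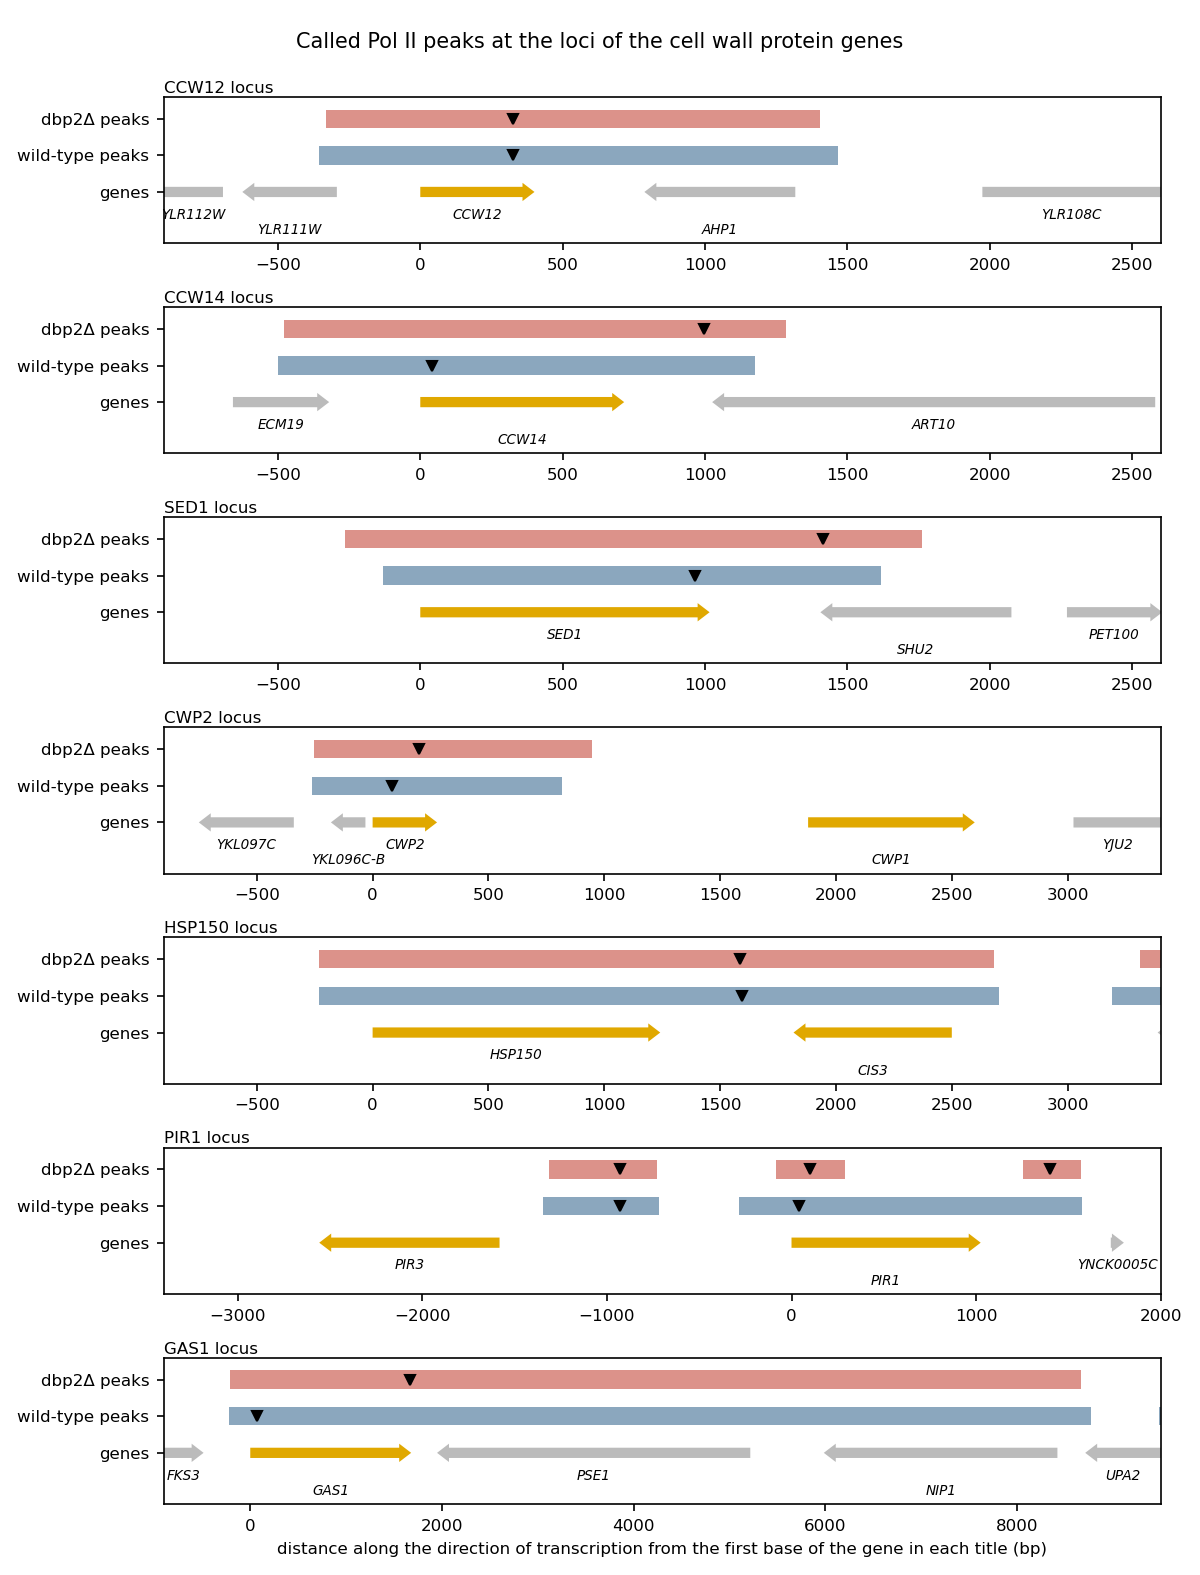
Called peaks (bars) and their summits (triangles) at 7 loci, dbp2Δ above the wild type, over the annotated genes (arrows, members in yellow). The horizontal axis is the distance in bp along the direction of transcription from the first base of the gene named in each title. The summits of CCW14, SED1 and GAS1 lie further towards or past the gene end in dbp2Δ, those of CCW12 and of CIS3 with HSP150 nearly coincide, and the wild-type peak over PIR1 appears as 2 separate peaks in dbp2Δ.

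The next comparison set the positions of the members against those of all genes. It used genes that a single peak per list covered over at least 50%, which were 939 protein-coding genes with 7 members among them. These 939 genes lay under 737 distinct pairs of peaks, and CIS3 and HSP150 under 1, so genes are not independent. The summit was further downstream in dbp2Δ by 1599 bp in GAS1, 955 bp in CCW14, 449 bp in SED1 and 115 bp in CWP2. It differed by 1 bp in CCW12, and by 11 bp in the shared peak of CIS3 and HSP150, which is downstream for CIS3 and upstream for HSP150. The median over the 7 members was 115 bp downstream, against 64 bp over all 939 genes, with each gene counted. With the shared peak counted once it was 282 bp over the members, and no such median was taken over all genes.

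A summit at least 400 bp further downstream in dbp2Δ, a distance chosen after the values were seen, was found in 3 of the 7 members and in 36.4% of the 939 genes. A summit at least 400 bp further upstream was found in none of the 7 members and in 7.45% of the 939 genes. The members' share, 42.9%, thus lay near that of all genes. GAS1 stood at the 89.9th percentile of all genes for this distance, CCW14 at the 79.6th and SED1 at the 65.4th.

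The place of the summit relative to the gene was also counted. In dbp2Δ the summit lay past the end of the gene in 4 of the 7 members (CCW14, SED1, CIS3 and HSP150) and in 47.4% of the 939 genes, and in the upstream 50% of the gene in none of the 7 and in 16.4% of the 939. In the wild type it lay past the end in 2 of the 7 members (CIS3 and HSP150) and in 27.4% of the 939 genes, and in the upstream 50% in 3 (CCW14, CWP2 and GAS1) and in 38.8% of the 939.

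The outer edges were compared as dbp2Δ minus wild type, with positive values further out from the gene in dbp2Δ. At the 5′ side the difference was 132 bp for SED1 and between -25 and 0 bp for the other 6 members. The median was -14 bp over the members and -28 bp over all 939 genes. At the 3′ side the difference was 143 bp for SED1, 133 bp for CWP2 and 110 bp for CCW14, so these 3 peaks reached further past the gene in dbp2Δ. It was -110 bp for GAS1, -62 bp for CCW12, -23 bp for HSP150 and 0 bp for CIS3. Each of these edges lay beyond another whole gene, NIP1 for GAS1, AHP1 for CCW12, CIS3 for HSP150 and HSP150 for CIS3. For GAS1 the edge was 6985 bp past the gene in dbp2Δ and 7095 bp past it in the wild type. Differences at such edges cannot be assigned to the member, and they enter the median. The median was 0 bp over the members and 55 bp over all genes, with each gene counted. With the shared peak of CIS3 and HSP150 counted once, as CIS3, the median over the members was 55 bp. No such median was taken over all genes. The caller's fragment size was 290 bp in dbp2Δ and 260 bp in the wild type, and its part in these edge differences was not tested.

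**Figure D3:**
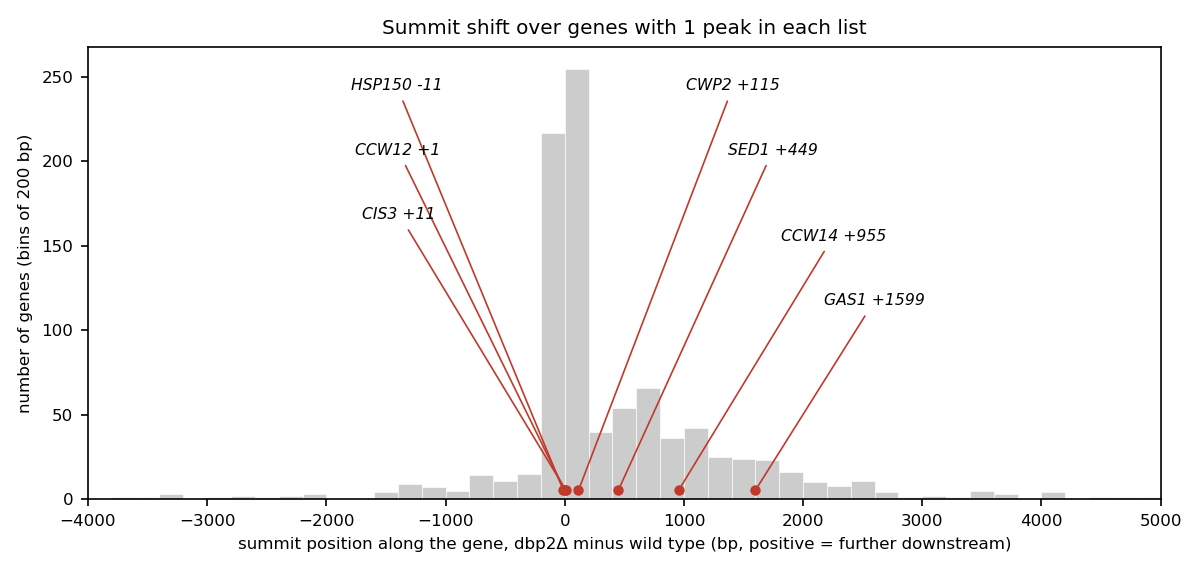
Number of genes by summit position along the gene, dbp2Δ minus wild type, in bins of 200 bp, over the 939 protein-coding genes with 1 peak in each list, with positive values further downstream in dbp2Δ (values beyond the axis are not drawn). Red points mark the 7 members, which run from -11 bp for HSP150 to 1599 bp for GAS1, within the spread of all genes.

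The arrangement of neighbours was also described. The next protein-coding gene downstream was convergent for 7 of the 10 members, against 51.6% of the 5978 protein-coding genes with such a neighbour, and in tandem for PIR1, CWP1 and CWP2. The convergent neighbour began 269 bp past GAS1, 308 bp past CCW14, 385 bp past CCW12 and 388 bp past SED1, so each of these peaks ran past the gene end into the neighbour. Over the 939 genes a summit at least 400 bp further downstream was found in 33.8% of 500 genes with a convergent neighbour and 39.4% of 439 with a tandem one. Every one of the 7 members with a peak in each list shared it, in at least 1 of the lists, with another gene covered over at least 50%. The same was true of 59.4% of the 939 genes. The peaks above are therefore those of loci rather than of single genes.

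Genes were also ranked by likeness to each member, as the smallest summed difference of 4 measures, the percentile of fold enrichment within each list and the percent covered in each list. The closest pairs were CCW12 with YDR524W-C (fold enrichment 19.6 in dbp2Δ and 19.2 in the wild type), CWP2 with RPS2 (10.4 and 9.15), and CIS3 and HSP150 with GCN4 (12.7 and 8.98). The summed differences were 0.183, 0.306 and 0.306 percentage points.

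Other genes of the cell wall were described from 5 lists, of which 81 of 82 genes were found in the table. A peak was called for 31 of the 81 (38.3%) in dbp2Δ and 28 (34.6%) in the wild type, with 25 in both. These shares, and those of the first 4 lists below, lay above the 20.6% of all genes in dbp2Δ and 19.9% in the wild type. The lists were chosen with earlier results of these data known, and this difference was not tested. A gene was also counted where the summit lay outside it or the peak covered a neighbour. In dbp2Δ alone 6 of the 81 had a peak, and in the wild type alone 3, against 3.7% and 3% of all genes. These were 6 of the 31 with a peak in dbp2Δ and 3 of the 28 with one in the wild type. Among all genes with a peak, 17.9% of those in dbp2Δ and 15.0% of those in the wild type had one in that list only.

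Of 19 other GPI-type and soluble wall proteins, 9 had a peak in dbp2Δ and 9 in the wild type. The highest wild-type values were those of SUN4 (fold enrichment 15.0 in dbp2Δ and 13.2 in the wild type), SCW11 (8.65 and 9.33) and ECM33 (6.51 and 5.66). The SUN4 peaks also covered RPL9B, the SCW11 peaks RPL24A and RPL30 among others, and the ECM33 peaks RPG1, and the summits lay outside the wall genes in each list. NCW2, another wall protein, had a peak in dbp2Δ only (2.32), with 35.0% covered in the wild type. EGT2, which acts in the separation of daughter cells, was covered over 35.2% in dbp2Δ and had a peak in the wild type only (3.69). The listed TIR and DAN genes, wall mannoproteins known for their use in cold or without oxygen, were covered over 0% in both lists. TIP1, another wall mannoprotein, was covered over 100% in both, with a fold enrichment of 2.71 in dbp2Δ and 2.74 in the wild type.

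Of 16 genes that remodel glucan, 6 had a peak in dbp2Δ and 7 in the wild type, led in the wild type by the chitin transglycosylase UTR2 (2.64 in dbp2Δ and 5.28 in the wild type), the glucanase BGL2 (3.58 and 3.09) and the exoglucanase EXG1 (3.12 and 2.76). The BGL2 summit lay outside the gene in dbp2Δ. In both lists the UTR2 peak also covered CYC7 and the BGL2 peak UPA1. KRE9, which acts in glucan synthesis, was covered over 43.1% in dbp2Δ and 100% in the wild type. These peaks had their summits outside KRE9 and also covered RFA3. Among the other members of the GAS family, GAS2, GAS3, GAS4 and GAS5 had no peak by this rule in either list.

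Of 13 genes of glucan and chitin synthesis, 6 had a peak in dbp2Δ and 5 in the wild type. They included CHS7, which lets chitin synthase leave the endoplasmic reticulum (1.84 in dbp2Δ and 4.01 in the wild type), the chitinase gene CTS1 (5.62 and 3.22) and the glucan synthase gene FKS1 (3.67 and 3.04). The summits lay outside CTS1 and FKS1 in both lists and outside CHS7 in the wild type. In dbp2Δ the CTS1 peak also covered RPS30A and YLR287C among others, and in the wild type the CHS7 peak covered DSE2 and RPC10. GFA1, the first enzyme of chitin precursor synthesis, was covered over 100% in dbp2Δ (1.96, summit outside the gene) and 0% in the wild type. Of 17 genes of mannose supply and protein mannosylation, 6 had a peak in dbp2Δ and 7 in the wild type, led in the wild type by the enzyme that makes GDP-mannose, PSA1 (7.62 in dbp2Δ and 7.999 in the wild type), the phosphomannomutase SEC53 (3.04 and 3.42) and the Golgi GDP-mannose transporter VRG4 (2.92 and 2.86). The summits of PSA1 lay outside the gene in both lists and that of SEC53 in dbp2Δ. In the wild type the SEC53 peak also covered OTU1. PMT1, a protein O-mannosyltransferase, was covered over 25.9% in dbp2Δ and 83.1% in the wild type.

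The last list held 16 genes of cell wall integrity signalling. A peak covered 4 of 16 (25%) in dbp2Δ and 0 of 16 in the wild type. The shares of all genes given above were 20.6% in dbp2Δ and 19.9% in the wild type, so the dbp2Δ count lay near that of all genes and the wild-type count below it. The 4 genes were called in dbp2Δ only, as were 3.7% of all genes. SLT2, the MAP kinase, was covered over 100% in dbp2Δ, with a fold enrichment of 3.19 and the summit outside the gene, and over 0% in the wild type. MID2, a sensor of wall stress, was covered over 100% in dbp2Δ (2.07, summit inside the gene) and 0% in the wild type. Its dbp2Δ peak also covered JIP3. WSC3, another sensor, was covered over 82.2% in dbp2Δ (1.76, summit inside the gene) and 14.4% in the wild type. RLM1, a transcription factor that Slt2 activates, was covered over 55.1% in dbp2Δ and 0% in the wild type, but by a peak that also covered the ribosomal protein gene RPS6A and had its summit outside RLM1 (5.83). The other 12, among them PKC1, BCK1, MKK1 and MKK2 of the kinase cascade, had no peak by this rule in either list.

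**Figure D4:**
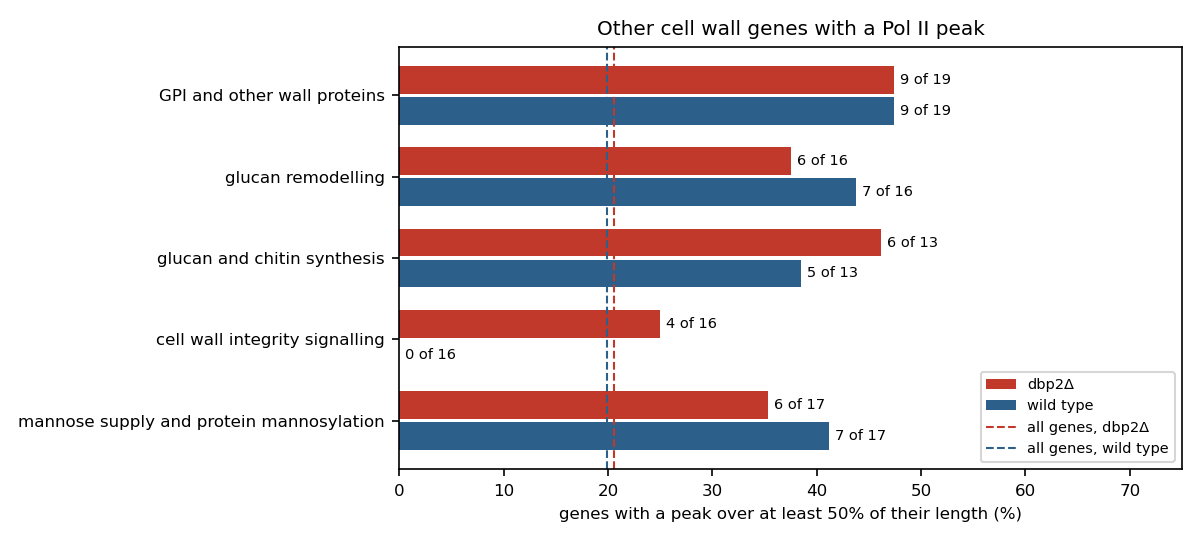
Percent of the genes of each list with a peak over at least 50% of their length, dbp2Δ bars above wild-type bars, with the counts beside the bars and dashed lines at the shares of all protein-coding genes (20.6% in dbp2Δ and 19.9% in the wild type). The signalling genes have 4 of 16 in dbp2Δ and 0 of 16 in the wild type.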

How the data were processed

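MACS 2.1.2, run by the authors in paired-end mode per the file headers, made 1 peak list for each strain from 3 immunoprecipitates and 3 inputs that were pooled first. The q-value cutoff was 0.05, and of duplicate fragments at most 1 was kept. The deposited lists give the position of each peak, its pileup (a coverage signal at the summit), −log10 q-value, and fold enrichment (a ratio to the caller's background). Build R64, Bowtie2 2.3.3.1 and Trimmomatic 0.36 are named in the submitters' processing notes. The labels list the molecule as polyA RNA, although their protocol describes purified DNA.

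Genes came from a RefSeq table of R64, with the strand from the W or C of the systematic name, and positions are counted from 1. Coverage, edges and summits were computed in Python 3.11.15 with pandas 2.3.3, tested on simulated intervals. The fold and pileup given for a gene are those of the highest peak that overlaps it. The implied background is (pileup + 1) / fold − 1. No test between the strains was possible on pooled lists. Sequences were not used here.

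The members, the lists of other wall genes and the rules were chosen with earlier results of these data known. All 10 members were named, with the 3 highest wild-type values and all genes called in 1 list only from each other list. Alternatives were another coverage rule, stricter peak filters and an equal minimum peak length.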

Additional observations from a re-analysis of the deposited data

How the results depend on the processing

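The counts of members with a peak, 7 in dbp2Δ and 8 in the wild type, stayed within 1.5 times of these values under every alternative tried: any overlap, at least 80% covered, peaks of at least 2-fold enrichment, −log10 q of at least 3, and an equal minimum peak length of 290 bp. With any overlap the number of members with a peak in 1 list only was 0 in place of 1, because the part of PIR1 covered in dbp2Δ then counted. With peaks of at least 2-fold enrichment, 0% of PIR1 was covered in dbp2Δ, and the other 19 coverage values of the members did not change. With any overlap the other cell wall genes with a peak numbered 49 in dbp2Δ and 43 in the wild type, and 14 in 1 list only. The other alternatives left these 3 counts within 1.5 times. When CIS3 stood for the peak it shares with HSP150, a choice made after seeing the data, the median 5′ edge difference over members was -18 bp. The median 3′ edge difference was 55 bp and the median summit shift 282 bp. The edge medians also depend on which gene stands for the peak. The 5′ difference was -23 bp for CIS3 and 0 bp for HSP150, and the 3′ difference 0 bp for CIS3 and -23 bp for HSP150. Medians over members whose peak covered no other gene could not be had, because 0 members were left. No paired analysis was possible because the replicates were pooled before peaks were called, and for the same reason no replicate could be left out. Depth limits what was called: a gene without a peak was not detected at this depth and threshold, which does not show that Pol II was absent.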
